A study of Mus musculus with 12 samples.

Results

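Liver (LIV) and subcutaneous adipose tissue (SAT) of obese mice that received no drug were compared on whole-transcript arrays, with all 22206 probe sets for genes and transcripts taken as the items described. The comparison used 6 of the 12 arrays of the series, namely 1 LIV and 1 SAT array from each of 3 animals, numbered 8, 11 and 14. These were male C57BL/6N mice without any engineered allele, aged 8 weeks at the start. They received vehicle by gavage every 12 h for 3 months, starting 2 weeks before a high-fat diet (HFD) that supplied 60% of its kcal as fat for 10 weeks. The SAT was the inguinal pad. The other 6 arrays came from HFD mice given LY2584702 tosylate, an inhibitor of the kinase S6K1 (HFD+LY). They served to ask whether the tissue difference itself depended on the drug, and in an alternative fit on all 12 arrays. They were also part of the authors' normalization. The sample characteristics call the drug-free mice untreated and their descriptions say vehicle. All 6 mice of the series were fed HFD, so no lean tissue was compared here.

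The liver is the main source of the proteins of blood plasma, and its hepatocytes clear nitrogen as urea, make and release glucose, turn cholesterol into bile acids and oxidize or conjugate foreign compounds. Subcutaneous fat stores triglyceride in large droplets within adipocytes, releases it as fatty acids and glycerol under hormonal control, and secretes hormones such as leptin and adiponectin. Both tissues make, take up and burn fatty acids, often through different members of the same gene family, and both hold macrophages, endothelium and fibroblast-like cells around the parenchymal cell.

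Every value below is a log2 signal of 1 probe set, so a step of 1 is a doubling of the signal, and where 3 values are given they are those of animals 8, 11 and 14 in that order. Differences are LIV minus SAT on the log2 scale, averaged over the 3 pairs and given with the standard error of the paired fit (±), or alone in parentheses after a gene. A negative difference is a higher signal in SAT. A gene was called higher in a tissue when limma's adjusted p was under 0.05 and the difference was at least 1 (2-fold). Genes described as not called missed one of these limits. Signals of different genes were not set against each other, because probe sets differ in response. The 23 background probe sets ran from 4.04 to 10.35, so a low signal was not read as absence. Many differences below, such as those of Fabp1 and Adipoq, were taken against a signal within that range. They are differences of signal and were not read as ratios of transcript amount.

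The tissue labels held in every array. The 11 hepatocyte markers measured had a mean signal of 13.37, 13.37 and 13.31 in LIV and 8.43, 8.49 and 8.70 in SAT, and all 11 were called higher in LIV. The 10 adipocyte markers averaged 8.59, 8.67 and 8.66 in LIV and 13.35, 13.15 and 13.36 in SAT, and all 10 were called higher in SAT. The array medians lay between 8.18 and 8.26. The SAT of animal 11 stood apart in its muscle genes. The mean of 21 skeletal muscle genes was 7.64, 7.64 and 7.75 in LIV and 7.99, 12.64 and 9.12 in SAT, so that it was high in the SAT of animal 11, lower in that of animal 14 and lowest in that of animal 8. Of the 190 probe sets that spanned at least 2 over the 3 SAT arrays, 183 were highest in animal 11. Several of the genes below are also used by muscle, and some of them are given with their 3 SAT values.

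The tissues differed across much of the transcriptome. The adjusted p was under 0.05 for 9104 of the 22206 probe sets (41%), of which 4073 were higher in LIV and 5031 higher in SAT. With the size limit, 1331 probe sets (5.99%) were called higher in LIV and 1950 (8.78%) higher in SAT, which correspond to 1138 and 1812 gene symbols. LIV thus held 40.6% of the calls, and the median difference over all probe sets was 0.06. This split depended on the scaling. When the arrays were set equal on the ribosomal protein list instead, the median of all differences rose to 0.40, 1984 probe sets were called higher in LIV and 1261 higher in SAT, and LIV held 61.1% of the calls.

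The balance also turned with the size of the difference. At a limit of 2 the tissues were nearly equal, with 646 calls for LIV and 638 for SAT. At a limit of 4 there were 261 for LIV and 70 for SAT, and at a limit of 6 there were 74 and 10. On the deposited scale, SAT therefore had more calls of modest size and LIV more of the steepest ones. A sign permutation of 3 pairs for a single gene could not go below an exact two-sided p of 0.25, so the tests rested on the spread shared over probe sets in limma. Among the genes named below as called, the adjusted p was at most 0.0496 by limma.

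**Figure D1:**
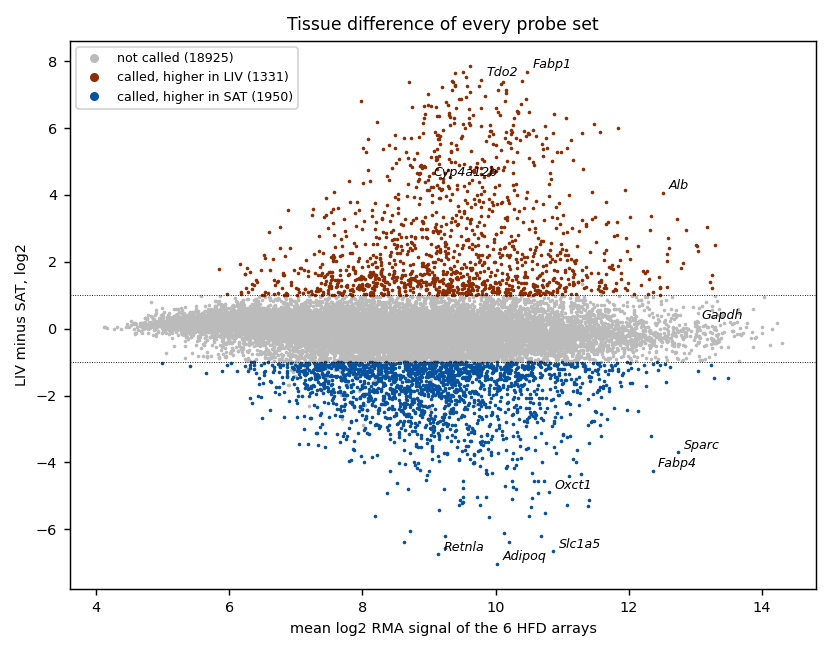
Difference between the tissues (LIV minus SAT, log2) against the mean log2 signal over the 6 HFD arrays, with 1 point for each of the 22206 probe sets and dotted lines at the limits of the call. The 1331 probe sets called higher in LIV reached beyond 7 and the 1950 called higher in SAT were densest nearer the dotted line.

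The gene with the largest difference towards LIV was Fabp1, the cytosolic fatty acid binding protein of hepatocytes and enterocytes. Its signals were 14.38, 14.29 and 14.29 in LIV and 6.4, 6.26 and 7.25 in SAT, a difference of 7.69 ± 0.21. The lowest LIV array lay more than 7 log2 units above the highest SAT array. Akr1c6, a hydroxysteroid dehydrogenase, followed with 13.34, 13.33 and 13.37 in LIV and 5.85, 5.62 and 5.50 in SAT (7.69 ± 0.12). Ugt2b5, a glucuronosyltransferase, had 13.24, 13.23 and 13.16 in LIV and 5.45, 5.75 and 5.52 in SAT (7.64 ± 0.11). For both genes the LIV arrays lay close together.

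Behind these came a set that spans most liver functions. Slc10a1, the sodium-dependent bile acid importer, had 13.29, 13.34 and 13.31 in LIV and 5.92, 5.95 and 5.53 in SAT. Tdo2, which opens the tryptophan ring, had 13.35, 13.54 and 13.60 in LIV and 5.96, 6.19 and 6.01 in SAT, and Tat, tyrosine aminotransferase, had 13.10, 12.84 and 13.24 in LIV and 5.58, 5.86 and 5.50 in SAT. Fgg, the gamma chain of fibrinogen, had 13.85, 13.84 and 13.75 in LIV and 6.47, 6.22 and 6.58 in SAT. In none of these did a SAT array reach 7 or a LIV array fall below 12. The rest of the 15 largest included Slco1b2 (7.38), an organic anion importer, and the P450 genes Cyp2d26 (7.33) and Cyp2j5 (7.27). The solute carrier Slc22a30 (7.29), the fatty acid transport protein Slc27a2 (7.27) and the serum amyloid A gene Saa4 (7.26) also belonged to them. The complement factor H related gene Cfhr2 (7.23) and AI182371 (7.39) completed the 15. A probe set without a single gene symbol had a larger difference than any of these, 7.87.

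Towards SAT, the largest difference was that of Adipoq, which encodes adiponectin, with 6.44, 6.39 and 6.72 in LIV and 13.53, 13.47 and 13.62 in SAT. The difference was -7.03 ± 0.11. Retnla, a secreted resistin-like protein, had 5.66, 6.10 and 5.54 in LIV and 12.66, 12.16 and 12.71 in SAT (-6.74 ± 0.22). Lep, which encodes leptin, had 6.75, 7.05 and 7.21 in LIV and 13.48, 13.19 and 13.52 in SAT (-6.39 ± 0.14). The groups lay more than 5 log2 units apart in each of these, with the SAT of animal 11 lowest of the SAT arrays in all.

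Other genes of this rank had broader roles. Slc1a5, a neutral amino acid transporter, had 7.79, 7.50 and 7.31 in LIV and 14.37, 13.96 and 14.25 in SAT, and Scn7a, a sodium channel gene of atypical type, had 5.21, 5.46 and 5.64 in LIV and 11.70, 11.82 and 11.94 in SAT. Neither tissue's arrays spread by more than 0.5. The neighbouring duplicates Arxes2 (-6.55) and Arxes1 (-6.04), which are closely alike and can share probes, the adipocyte galectin Lgals12 (-6.21), resistin, Retn (-6.19), and Aoc3 (-6.10), an amine oxidase on the adipocyte surface, completed the 10 largest. They were followed by Tmem45b (-5.63), the small matrix proteoglycan Aspn (-5.60), the natriuretic peptide clearance receptor Npr3 (-5.59), the glycerol channel Aqp7 (-5.52) and the activin receptor Acvr1c (-5.41).

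**Figure D2:**
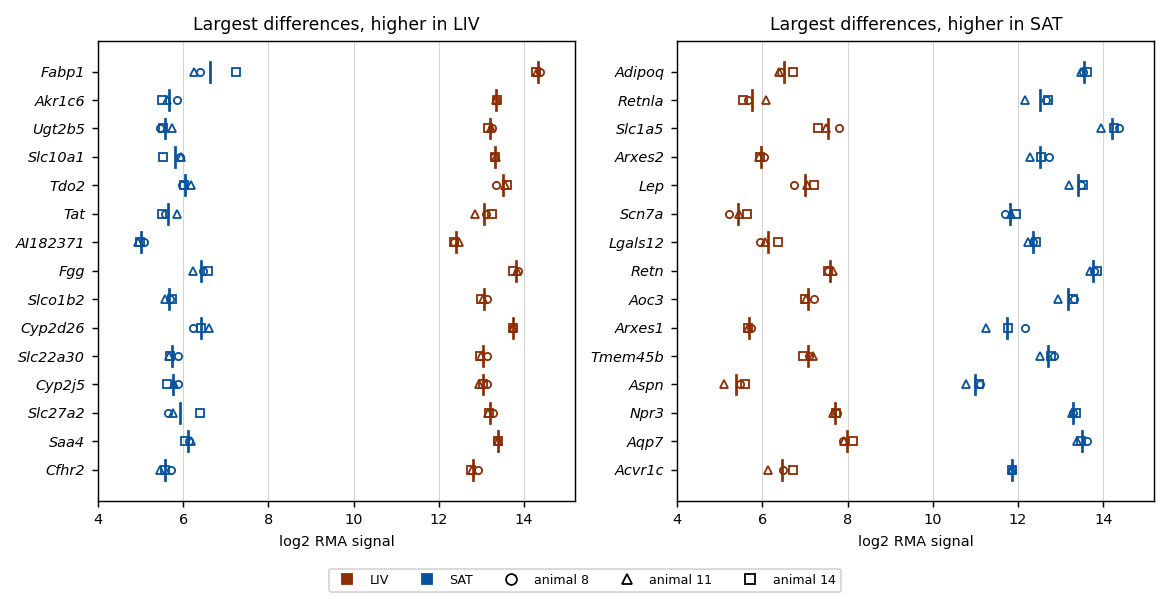
Log2 signal of the 15 named genes with the largest differences in each direction, each symbol 1 array (shape for the animal, colour for the tissue) and each vertical bar the mean of 3 arrays. No gene shown has overlapping tissues, and Fabp1 in SAT ran from 6.26 to 7.25. The genes were chosen for their large differences. Of all 22206 probe sets, 6518 higher in LIV and 6225 higher in SAT had no overlap either.

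The promoters of the 2 highest ranked genes with a promoter sequence in each direction are shown because short motifs of liver promoters were counted over all called genes. They are the 250 bases before the annotated start (RefSeq, GRCm38.p6), written 5′ to 3′ in the direction of the gene, with matches to 3 motifs in capitals, searched on both strands. One is the core promoter box TATAAA. The next is GTTAAT, the short HNF1 motif. The last is TTGCNNAA, the palindrome of the C/EBP family. The windows lie at chr6:71199629-71199878, plus strand (Fabp1), chr13:4434093-4434342, plus strand (Akr1c6), chr16:23146286-23146535, plus strand (Adipoq) and chr16:48842359-48842608, plus strand (Retnla).
Fabp1: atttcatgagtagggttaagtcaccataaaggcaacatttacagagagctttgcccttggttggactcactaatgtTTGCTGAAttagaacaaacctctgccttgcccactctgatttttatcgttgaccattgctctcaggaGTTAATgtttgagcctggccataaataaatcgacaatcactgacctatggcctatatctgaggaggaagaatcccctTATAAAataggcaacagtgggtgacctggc
Akr1c6: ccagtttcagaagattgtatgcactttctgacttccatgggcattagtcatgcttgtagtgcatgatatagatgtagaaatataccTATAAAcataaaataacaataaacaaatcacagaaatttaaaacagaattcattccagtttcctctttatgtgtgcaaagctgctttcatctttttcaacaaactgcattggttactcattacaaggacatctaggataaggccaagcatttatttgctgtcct
Adipoq: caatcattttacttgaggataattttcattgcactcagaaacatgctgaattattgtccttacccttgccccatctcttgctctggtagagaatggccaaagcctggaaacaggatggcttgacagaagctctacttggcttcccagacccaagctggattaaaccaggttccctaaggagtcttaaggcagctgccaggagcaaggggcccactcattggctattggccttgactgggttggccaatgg
Retnla: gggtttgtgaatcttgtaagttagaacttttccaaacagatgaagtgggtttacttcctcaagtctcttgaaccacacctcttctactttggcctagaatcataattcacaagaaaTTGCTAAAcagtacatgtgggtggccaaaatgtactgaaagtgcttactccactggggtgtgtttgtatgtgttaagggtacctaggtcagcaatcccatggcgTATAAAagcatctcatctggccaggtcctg
The Fabp1 window held all 3 motifs, with the core box at position -30 from the start, the HNF1 motif at -107 and the C/EBP palindrome at -174. The Akr1c6 window held only a core box, at -164. The Adipoq window held none of the 3, and that of Retnla held a core box at -30 and a C/EBP palindrome at -134.

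Over all genes, the promoters on the 2 sides of the comparison differed in composition. A promoter was available in the RefSeq table for 899 genes called higher in LIV (1150 starts), for 1390 called higher in SAT (1868 starts) and for 15691 of all genes on the array (19143 starts). The same 250 bases were counted for each start. The median number of CG dinucleotides was 6 on the LIV side, 12 on the SAT side and 10 over all, and the median GC content was 53.8%, 58.4% and 56.0%. The HNF1 motif was found in 10.3% of LIV promoters, 4.44% of SAT promoters and 5.83% of all. For CAAAGTCC, a motif bound by HNF4, these shares were 3.74%, 1.07% and 1.32%, and for the C/EBP palindrome they were 13%, 9.58% and 9.0%. TATAAA stood in 13.9%, 9.05% and 11.4%. These shares are descriptions of letters in a fixed window, and starts of 1 gene share sequence. Among calls with a difference of at least 2, the HNF1 motif was in 14.3% of LIV and 4.32% of SAT promoters. TATAAA and GTTAAT consist mostly of A and T, and the LIV promoters were lower in GC.

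The transcription factors that define hepatocyte identity were higher in LIV. Of 17 measured, 14 were called for LIV and 0 for SAT, with a median difference of 2.99. The bile acid receptor Nr1h4 had 11.73, 11.62 and 11.55 in LIV and 6.32, 6.62 and 6.83 in SAT (5.04 ± 0.15), and Hnf4a, the nuclear receptor at the centre of this network, had 11.95, 12.35 and 12.24 in LIV and 7.52, 7.84 and 7.41 in SAT (4.59 ± 0.12). The xenobiotic receptors Nr1i3 (4.90) and Nr1i2 (4.34), the fatty acid receptor Ppara (4.29) and the homeobox factor Prox1 (3.65) came next. The forkhead factors Foxa1 (2.08), Foxa2 (2.34) and Foxa3 (2.41) differed less. Cebpa, which both hepatocytes and adipocytes depend on, was not called, with 9.42, 9.61 and 9.33 in LIV and 9.64, 9.51 and 9.68 in SAT (-0.16 ± 0.12, adjusted p = 0.34 by limma), and its 6 signals overlapped between the tissues. Rora (-0.06) and Tbx3 (0.53) were also not called.

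Proteins that the liver secretes into plasma made up several of the steepest groups. Of 19 carrier and transport proteins, 16 were called for LIV (median 5.42), among them the protease inhibitors Pzp (7.14) and Mug1 (6.82), fetuin, Ahsg (6.29), transthyretin, Ttr (5.86), and hemopexin, Hpx (5.42). Albumin itself had 14.59, 14.52 and 14.55 in LIV and 10.29, 10.59 and 10.57 in SAT, so that its difference of 4.07 ± 0.12 started from a SAT signal above 10. The plasma proteins that were not called are ones that fat also makes. Haptoglobin, Hp, had 13.37, 13.47 and 13.41 in LIV and 13.45, 13.08 and 13.41 in SAT (0.10 ± 0.13, adjusted p = 0.541 by limma), Orm1 had a difference of 0.35 ± 0.13, and the retinol carrier Rbp4 differed by 0.94 ± 0.11, under the size limit.

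Of 21 genes of coagulation and fibrinolysis, 20 were called for LIV and 0 for SAT (median 5.30). Antithrombin, Serpinc1, had 13.69, 13.72 and 13.66 in LIV and 6.61, 6.67 and 6.63 in SAT (7.06 ± 0.10). The fibrinogen chains Fga (5.71) and Fgb (5.93), plasminogen, Plg (6.46), kininogen, Kng1 (7.08), and prothrombin, F2 (4.99), were all called. Protein S, Pros1, was the exception, with 10.32, 10.07 and 10.17 in LIV and 9.93, 9.97 and 10.14 in SAT (0.17 ± 0.12).

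The apolipoprotein and lipoprotein assembly list had 13 of 15 called for LIV, with a median of 4.03. The structural proteins Apoa2 (6.12), Apob (5.69) and Apoa1 (5.27), the cholesterol esterifying enzyme Lcat (5.82) and Mttp (4.15), which loads lipid onto apolipoprotein B, were among them. Apoe, which macrophages and adipocytes also express, differed by 1.39 ± 0.11. Pltp, the phospholipid transfer protein, went the other way, with 8.0, 8.33 and 8.42 in LIV and 10.27, 9.60 and 10.06 in SAT (-1.73 ± 0.19). Angptl8 (0.46), an insulin-induced inhibitor of lipoprotein lipase, was not called.

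Complement genes split by part of the cascade. Of 21 measured, 14 were called for LIV and 4 for SAT (median 3.19). The terminal components C9 (7.01), C8a (4.66) and C8b (4.62), the lectin pathway genes Masp2 (5.50), Mbl1 (4.20) and Mbl2 (3.88) and the regulators C4bp (6.15) and Cfi (5.32) were higher in LIV. The 4 called for SAT were C1qa (-1.73), C1qb (-1.30) and C1qc (-1.42), the chains of C1q that macrophages make, and properdin, Cfp (-1.79). C4b (0.42), Cfb (0.57) and C1s1 (0.99) were not called, although C1s1 passed the size limit without animal 11 (1.02) or 14 (1.03).

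Nitrogen and amino acid metabolism belonged to LIV nearly throughout. All 9 urea cycle and ammonia genes were called for LIV (median 4.15). Cps1, the mitochondrial entry enzyme, had 13.12, 13.08 and 13.05 in LIV and 6.32, 6.64 and 6.49 in SAT (6.60 ± 0.12), Otc (6.43) and Arg1 (5.95) were nearly as steep, and Oat (1.90), ornithine aminotransferase, was the least so. Of 28 amino acid catabolism genes, 27 were called for LIV (median 3.83). Besides Tdo2 and Tat, these included the methyl donor enzymes Gnmt (6.87), Mat1a (6.07) and Bhmt (5.83), the tyrosine pathway enzymes Hpd (5.65) and Hgd (5.56) and the histidine pathway enzyme Hal (4.73). Gstz1 (0.21), a late step of tyrosine breakdown, was not called.

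In glucose release and glycogen metabolism, 11 of 14 genes were called for LIV and 0 for SAT (median 2.82). G6pc, the phosphatase that frees glucose, had 13.03, 12.20 and 12.52 in LIV and 7.22, 7.67 and 7.42 in SAT (5.14 ± 0.23), and the glucose carrier Slc2a2 had 13.04, 13.08 and 13.15 in LIV and 7.25, 7.31 and 7.08 in SAT (5.88 ± 0.11). Gckr (5.14), which restrains glucokinase, and Fbp1 (4.82) were also steep. Pck1, which makes phosphoenolpyruvate for glucose in liver and for glycerol in fat, had 11.31, 11.33 and 11.17 in LIV and 10.28, 10.37 and 10.60 in SAT. Its difference of 0.86 ± 0.13 was under the size limit although the tissues did not overlap (adjusted p = 0.00228 by limma). Of all 22206 probe sets, 6518 were likewise higher in LIV without overlap. Pyruvate carboxylase, Pcx, differed by -0.09 ± 0.18 and was not called.

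Bile acid genes were called for LIV in 21 of 22 cases (median 4.33). Cyp7a1, the rate-limiting enzyme of synthesis, had 11.46, 11.59 and 11.12 in LIV and 6.77, 6.72 and 6.70 in SAT (4.66 ± 0.12), and Cyp8b1, which sets the hydroxylation pattern, had 12.25, 12.17 and 12.04 in LIV and 6.70, 6.50 and 6.77 in SAT (5.50 ± 0.12). The canalicular exporter Abcb11 (4.14) and the sterol exporters Abcg5 (4.27) and Abcg8 (4.43) were called as well. Cyp27a1 (2.08), which macrophages also use, and Hsd3b7 (1.86) were the mildest of the synthesis enzymes.

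The P450 list had a median of 5.54, with 32 of 34 called for LIV. Cyp1a2 (6.47), Cyp3a11 (6.39) and Cyp4a14 (6.61) stood for 3 subfamilies with differences above 6. Cyp2e1, by contrast, had 13.74, 13.87 and 13.79 in LIV and 11.75, 11.93 and 11.84 in SAT (1.96 ± 0.10), and its SAT signal was above 11 in every animal. Cyp1b1, an extrahepatic family member, was called for SAT (-1.02 ± 0.13, but -0.89 and not called without animal 14), and Cyp1a1 (0.81) was not called, although it passed the size limit without animal 11 (1.06) and on the ribosomal protein scale (1.16). Of 39 conjugating enzymes, 33 were called for LIV and 0 for SAT (median 3.80), with glucuronosyltransferases such as Ugt2b34 (6.68) and the sulfotransferase Sult2a8 (7.12) at the top. The glutathione transferase Gstm2 (-0.24) and the carboxylesterase Ces1d (0.13) were not called. Several Ugt2b, Ces1 and Cyp2c genes are close copies of each other, and how far their probe sets share signal was not tested.

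Genes of fat hormones held several of the largest differences towards SAT. Of 16 genes on the adipokine list, which also holds the receptor Npr3, 9 were called for SAT and 0 for LIV, with a median of -1.66 against 0.06 over all probe sets. After Adipoq, Lep, Retn and Npr3 came C1qtnf12 (-3.11), an adiponectin paralogue, apelin, Apln (-2.58), the Wnt inhibitor Sfrp5 (-2.46), Metrnl (-1.94) and Nrg4 (-1.37). Angptl4, a lipoprotein lipase inhibitor of both tissues, had 10.72, 10.79 and 10.83 in LIV and 11.83, 11.46 and 11.76 in SAT and missed the size limit (-0.90 ± 0.12). Without animal 11 it reached -1.02 and was called, and Rbp4 was called for LIV without animal 14. Nampt (0.06) and chemerin, Rarres2 (0.23), were not called.

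The lipid droplet proteins divided between the tissues, with 6 of 16 called for SAT and 4 for LIV (median -0.57). Plin1, which coats the large adipocyte droplet, had 8.27, 8.28 and 8.33 in LIV and 12.98, 12.63 and 12.93 in SAT (-4.55 ± 0.12), and Cidec, which fuses droplets, had 8.41, 8.66 and 8.27 in LIV and 13.17, 12.78 and 13.09 in SAT (-4.57 ± 0.16). Plin4 (-2.89), Cidea (-2.06) and the seipin gene Bscl2 (-1.62) were also higher in SAT. Hsd17b13, a droplet protein of hepatocytes, was opposite, with 13.23, 13.27 and 13.36 in LIV and 8.20, 8.12 and 8.04 in SAT (5.17 ± 0.11), as were Cideb (3.21), Hsd17b11 (1.5) and Plin5 (1.14), the last of which fell to 0.92 and under the limit without animal 14. Plin2, the general droplet coat, had 12.82, 12.88 and 13.06 in LIV and 13.58, 12.73 and 13.32 in SAT and was not called (-0.29 ± 0.18), and neither was Plin3 (-0.29).

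Lipolysis belonged to SAT. Of 14 genes, 10 were called for SAT and 0 for LIV (median -2.43). The glycerol channel Aqp7 had 7.89, 7.92 and 8.13 in LIV and 13.62, 13.39 and 13.49 in SAT (-5.52 ± 0.12), and hormone-sensitive lipase, Lipe, had 9.34, 9.33 and 8.95 in LIV and 13.28, 13.01 and 13.33 in SAT (-3.99 ± 0.15). The regulatory kinase subunit Prkar2b (-5.29), the lactate receptor Hcar1 (-3.56), the triglyceride lipase Pnpla2 (-2.45) and its relative Pnpla3 (-3.38), lipoprotein lipase, Lpl (-2.48), and its endothelial anchor Gpihbp1 (-1.82) were called too. Abhd5, the coactivator of the triglyceride lipase, was not called (-0.07 ± 0.10).

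Fatty acid uptake and binding separated by family member. Of 22 genes, 11 were called for SAT and 4 for LIV (median -1.98). Fabp4, the adipocyte and endothelial binding protein, had 10.51, 10.08 and 10.12 in LIV and 14.53, 14.44 and 14.48 in SAT (-4.25 ± 0.12), and the uptake receptor Cd36 had 10.18, 9.65 and 10.10 in LIV and 13.34, 13.06 and 13.21 in SAT (-3.23 ± 0.11). The caveola genes Cavin2 (-4.09), Cav2 (-3.50), Cavin1 (-3.29) and Cav1 (-2.65) and the fatty acid receptor Ffar4 (-2.38) were also called. On the LIV side stood Fabp1, Slc27a2, the bile acid ligase Slc27a5 (6.31) and Fabp2 (6.13), known from the intestine. Fabp3, the binding protein of muscle and heart, was not called, and its SAT signals of 8.10, 12.16 and 9.02 were highest in animal 11, as for the muscle genes. Without animal 8 it was called for SAT, at -2.50.

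Adipogenic transcription factors were split as well, with 8 of 20 called for SAT and 3 for LIV (median -0.27, which turned to 0.08 with the arrays set equal on ribosomal protein genes). Ebf1 (-3.58 ± 0.10), Ebf3 (-3.41), Zfp423 (-2.90) and Pparg, the nuclear receptor that drives fat cell formation, with 9.08, 9.45 and 9.51 in LIV and 12.09, 11.87 and 12.13 in SAT (-2.68 ± 0.14), were higher in SAT. The carbohydrate response factor Mlxipl (1.77), Klf15 (1.29) and Tcf21 (1.18) were higher in LIV. The C/EBP genes Cebpb (0.08) and Cebpd (-0.24) and the liver X receptor gene Nr1h3 (0.01 ± 0.13) were not called.

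Enzymes that make fatty acids and triglyceride did not follow 1 tissue. Of 34 genes, 8 were called for LIV and 6 for SAT, and the median of -0.02 changed sign with the scaling (up to 0.33 on the ribosomal protein scale) and without animal 8, where 3 were called for SAT. The elongases Elovl2 (6.09) and Elovl3 (5.14) and the desaturases Fads2 (4.10) and Fads1 (2.52) were higher in LIV. Fatty acid synthase, Fasn, had 10.43, 10.94 and 10.71 in LIV and 12.72, 12.17 and 12.44 in SAT (-1.75 ± 0.20), and the stearoyl desaturase Scd1 had 12.09, 12.88 and 12.64 in LIV and 13.92, 14.04 and 14.06 in SAT (-1.47 ± 0.15), both higher in SAT together with Dgat1 (-2.13), which closes triglyceride synthesis. ATP citrate lyase, Acly, with a difference of -0.14 ± 0.11, and the carboxylases Acaca (-0.06 ± 0.11) and Acacb (-0.06 ± 0.13) lay near 0.

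Fatty acid oxidation had 11 of 27 genes called for LIV and 0 for SAT, with a median of 0.74. The thioesterases Acot3 (2.74) and Acot4 (1.85), the carnitine octanoyltransferase Crot (2.21), the bifunctional enzyme Ehhadh (2.15) and the entry enzyme Cpt1a (1.5) were among those called. The mitochondrial enzymes Acadm (-0.13), Acadl (-0.21), Echs1 (0.03) and Hadhb (-0.49) were not called. Among 5 genes of ketone metabolism, Oxct1, the enzyme that lets tissues use ketone bodies and that hepatocytes lack, had 8.62, 8.18 and 8.26 in LIV and 13.30, 13.22 and 13.24 in SAT (-4.90 ± 0.12). Bdh1, hydroxybutyrate dehydrogenase, was the reverse, with 12.19, 11.95 and 12.17 in LIV and 7.52, 7.62 and 7.53 in SAT (4.55 ± 0.12).

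**Figure D3:**
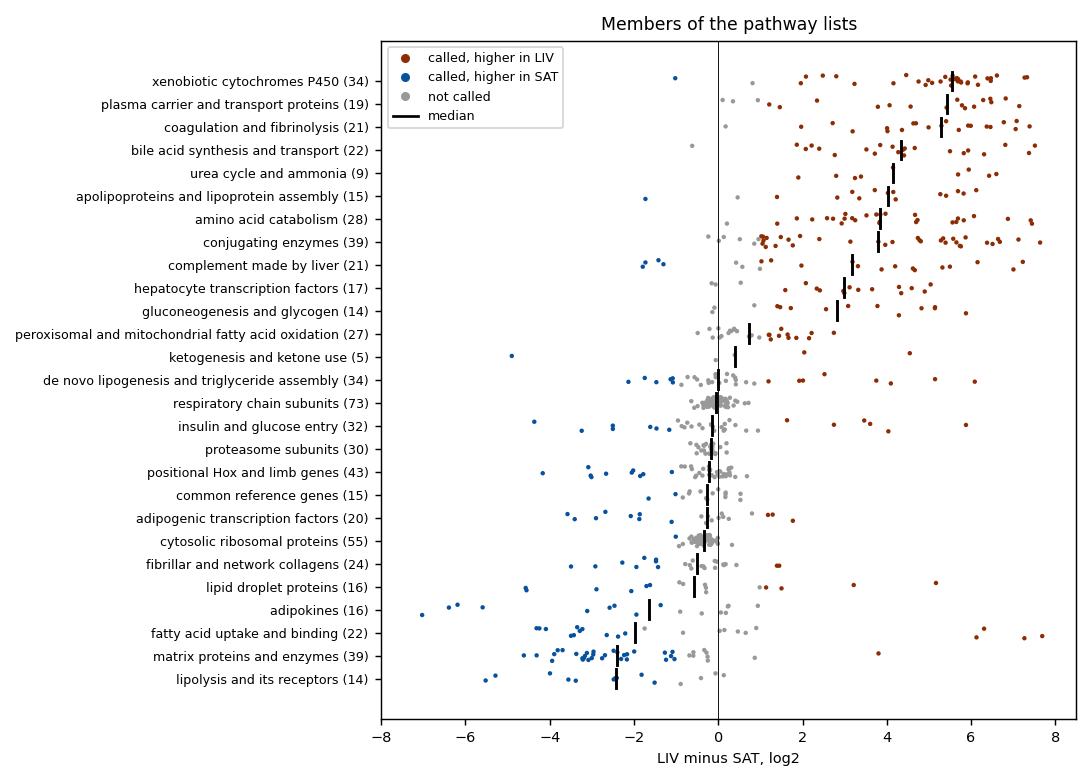
Difference between the tissues (LIV minus SAT, log2) for each measured member of 27 pathway lists, with the number measured in parentheses, the median as a black bar and the calls in colour. The P450, plasma protein and coagulation lists lie furthest to the right, lipolysis and matrix furthest to the left, and the ribosomal, respiratory chain and proteasome members cluster near 0.

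Of 32 genes of insulin action, glucose entry and IGF signalling, 7 were called for SAT and 6 for LIV (median -0.15, or 0.20 on the ribosomal protein scale). Hexokinase 2, Hk2, had 6.65, 6.76 and 6.93 in LIV and 10.91, 11.32 and 11.21 in SAT (-4.37 ± 0.11), and the insulin-regulated carrier Slc2a4 (-2.50), Akt2 (-1.61) and Tbc1d4 (-1.47) were also higher in SAT. The glucagon receptor Gcgr had 11.49, 11.27 and 11.32 in LIV and 7.46, 7.57 and 6.94 in SAT (4.04 ± 0.15). The IGF binding proteins parted, with Igfbp2 (3.6) and Igfbp1 (3.46) higher in LIV and Igfbp5 (-3.24), Igfbp6 (-2.50) and Igfbp7 (-1.16) higher in SAT. The insulin receptor, Insr, differed by 0.15 ± 0.10, Igf1 by 0.66 ± 0.12, Irs1 by -0.96 ± 0.12 and Irs2 by -0.80 ± 0.11, and none of these was called. Irs1 passed the limit without animal 14 (-1.08) and Igf1 on the ribosomal protein scale (1.01).

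Pairs of related genes with the same task were compared next. Of 17 pairs with both members measured, 11 had the first member called for LIV and the second for SAT, and 0 had both calls in the opposite order. The pairs were chosen for their known liver and fat or general forms, so the order is a description. Besides Fabp1 and Fabp4, the aquaglyceroporins Aqp9 (5.86) and Aqp7 (-5.52), the fatty acid transport proteins Slc27a2 (7.27) and Slc27a1 (-3.43), the glucose carriers Slc2a2 (5.88) and Slc2a4 (-2.50) and the nuclear receptors Ppara (4.29) and Pparg (-2.68) showed it. Cideb and Cidec, Plin5 and Plin1, the glycogen synthases Gys2 (1.72) and Gys1 (-2.78), the glycogen phosphorylases Pygl (1.47) and Pygb (-2.89), the pyruvate kinases Pklr (1.40) and Pkm (-2.89) and the bisphosphatases Fbp1 (4.82) and Fbp2 (-1.85) made up the other 6.

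Some second members followed the muscle genes in SAT. The SAT signals were 10.82, 12.62 and 11.04 for Pkm and 8.42, 10.45 and 8.51 for Fbp2, each highest in animal 11, although all 3 exceeded every LIV array of the same gene (8.54, 8.79 and 8.49 and 7.29, 6.99 and 7.56). Cpt1b, the muscle form of carnitine palmitoyltransferase, had 8.79, 8.58 and 8.83 in LIV and 9.23, 10.87 and 8.76 in SAT and was not called (-0.89 ± 0.41, adjusted p = 0.129 by limma). Elovl2 and Elovl3 were both called for LIV, Rxrg (-1.11, but -0.84 and not called without animal 11) was called for SAT while Rxra (0.92) missed the size limit, and the Acaca, Agpat3 (0.35) and Insig2 (0.79, called at 1.02 without animal 14) pairs had no call.

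**Figure D4:**
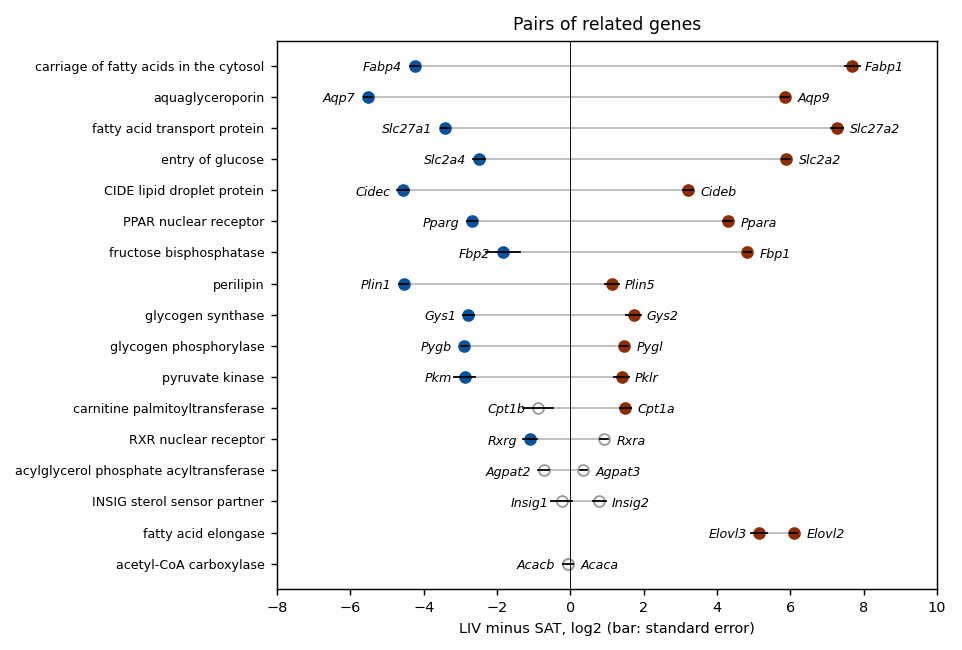
Difference between the tissues (LIV minus SAT, log2, bars the standard error) for 17 pairs of related genes, filled red where called for LIV, filled blue where called for SAT and open where not called. In 11 pairs the points lie on opposite sides of 0 with both called, the widest being Fabp1 at 7.69 against Fabp4 at -4.25.

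Extracellular matrix was a SAT feature. Of 39 matrix proteins and enzymes, 30 were called for SAT and 1 for LIV, with a median of -2.40. Sparc, a collagen-binding matrix protein, had 10.96, 11.01 and 10.73 in LIV and 14.66, 14.49 and 14.63 in SAT (-3.69 ± 0.12), and the metalloprotease Mmp3 had 6.42, 6.22 and 5.97 in LIV and 11.06, 10.45 and 10.94 in SAT (-4.61 ± 0.16). The basement membrane genes Lamb1 (-3.94), Nid1 (-3.89) and Lamc1 (-3.17), the proteoglycans Ogn (-3.81) and Lum (-3.19) and the crosslinking enzymes Loxl1 (-3.22) and Lox (-2.97) were called. Without animal 14, 2 were called for LIV. Vitronectin, Vtn, a plasma protein of hepatocytes, was the 1 called for LIV (3.80 ± 0.13), and fibronectin, Fn1, missed the size limit (0.87 ± 0.15) and passed it without animal 14 (1.01).

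Collagens were less uniform. Of 24 measured, 8 were called for SAT and 2 for LIV (median -0.50). The fibrillar genes Col3a1, with 7.94, 7.90 and 7.60 in LIV and 11.39, 11.03 and 11.51 in SAT (-3.50 ± 0.16), Col5a1 (-2.92), Col1a2 (-1.75) and Col1a1 (-1.43) were higher in SAT. Col18a1 (1.45 ± 0.13), the source of endostatin, and Col27a1 (1.39) were higher in LIV. Col6a1 (-0.78) and Col4a1 (-0.61) were not called, whereas their partners Col6a2 (-2.28) and Col4a2 (-1.48) were.

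Positional genes of the body wall and limb were called only towards SAT, although most were not called at all. Of 43 measured, 10 were called for SAT and 0 for LIV, and the median was -0.22 (0.13 on the ribosomal protein scale, where 1, Hoxd1, was called for LIV). Hoxc8 had 6.73, 6.74 and 6.76 in LIV and 11, 10.65 and 11.07 in SAT (-4.17 ± 0.12), and Tbx15, a factor of dorsal and subcutaneous mesenchyme, had 6.78, 6.35 and 6.39 in LIV and 8.62, 11.10 and 8.89 in SAT (-3.03 ± 0.50). The Tbx15 signal, like those of the muscle genes, was highest in the SAT of animal 11, while the SAT signals of Hoxc8 lay close together. Prrx1 (-3.08), Shox2 (-3.01), Meox2 (-2.66), Twist1 (-2.05), Hoxc10 (-2.02), Hoxc6 (-1.85), Hoxa10 (-1.78) and Twist2 (-1.10) were the others. The Hoxb and Hoxd genes measured were not called.

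Markers of other cells were compared list by list, and in bulk tissue fewer cells of a type and less RNA per cell cannot be told apart. Resident macrophage genes differed in kind between the tissues. Of 7 Kupffer cell markers, 4 were called for LIV and 1 for SAT (median 1.57). Clec4f, the Kupffer cell lectin, had 10.13, 9.68 and 9.40 in LIV and 7.01, 7.10 and 6.84 in SAT (2.75 ± 0.14), and Cd5l (1.94), C6 (1.97) and Vsig4 (1.57) were called as well. Folr2, which many tissue macrophages carry, was called for SAT (-1.97 ± 0.15), and Timd4 (0.05) and Marco (0.23) were not called.

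General macrophage markers were called for SAT in 6 of 8 cases (median -1.29), including Lyz2 (-2.52), Csf1r (-1.46) and Mrc1 (-1.04), while Adgre1 (-0.88) was not called. Without animal 14 Mrc1 stood at -0.91 and was not called, and without animal 11 Adgre1 stood at -1.14 and was. All 8 markers of lipid-associated macrophages were called for SAT (median -2.26). Mmp12, a macrophage elastase, had 7.63, 6.89 and 6.45 in LIV and 12.57, 11.15 and 12.32 in SAT (-5.03 ± 0.28), Gpnmb differed by -2.83 ± 0.22, Itgax, which encodes CD11c, by -1.16 ± 0.18, and Trem2 by -1.05 ± 0.18. The last 2 were close to the size limit, since without animal 8 they stood at -0.998 and -0.862 and were not called, as Trem2 was not without animal 14 (-0.99). The mean of these 8 genes was 7.67, 7.55 and 7.70 in LIV and 10.36, 9.36 and 10.39 in SAT, lowest among the SAT arrays in animal 11. Lpl, one of the 8, is also an adipocyte gene.

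Endothelial markers divided as well. Of 8 liver sinusoidal markers, 4 were called for LIV and 0 for SAT (median 1.03), namely Clec4g (3.74), Dnase1l3 (3.39), Stab2 (2.16) and Oit3 (1.43). Of 12 capillary markers, 9 were called for SAT and 0 for LIV (median -1.82). Fabp4 (-4.25), which is also on the adipocyte list, was among these 9. Rbp7 had 7.22, 6.82 and 7.34 in LIV and 12.32, 11.54 and 11.83 in SAT (-4.77 ± 0.14), and the junction genes Cldn5 (-3.64) and Cdh5 (-2.57) followed. Lyve1 (-0.54), a marker shared by sinusoids, lymphatics and some macrophages, was not called.

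The adipose progenitor list and the smooth muscle and pericyte list went to SAT, while the stellate cell list had few calls. Of 9 adipose progenitor markers, 6 were called for SAT and 1 for LIV (median -1.94), with Pi16 (-4.07) the largest and Dpp4 (1.55), which hepatocytes also express, the exception. Of 10 smooth muscle and pericyte markers, 6 were called for SAT, among them Acta2 (-4.18) and Pdgfrb (-1.90). Of 7 stellate cell markers, 1 was called for LIV, 2 were called for SAT and 4 were not called (median 0.26). Over all probe sets 5.99% were called for LIV and 8.78% for SAT, and a list this short gives no direction. Lrat (2.42 ± 0.13), which esterifies retinol, was the call for LIV, and Des and Rgs5 (-1.91) were those for SAT. Rgs5 is also on the smooth muscle and pericyte list. The SAT signals of Des, which muscle also expresses, were 7.69, 12.03 and 8.08, again highest in animal 11, and without animal 14 it was not called (adjusted p = 0.0809 by limma).

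Few B cell, T cell and neutrophil markers were called, against 5.99% for LIV and 8.78% for SAT over all probe sets. The mean signals of these lists lay between 6.93 and 7.35 in every array, within the range of the background probe sets. A lack of difference and a lack of detection therefore could not be told apart. No B cell or plasma cell marker of 7 was called by limma, with 2 at an unadjusted p under 0.05, and of 7 T cell markers only Il7r (-1.71) was, for SAT. Of 7 neutrophil markers only S100a8 was called, with 5.90, 5.90 and 5.65 in LIV and 7.77, 6.70 and 7.72 in SAT (-1.58 ± 0.24). Mast cell markers were called for SAT in 4 of 8 cases, namely Mcpt4 (-2.03), Tpsb2 (-1.73), Cpa3 (-1.51) and Kit (-1.37). Cholangiocyte markers gave 0 calls of 6 by limma (4 at an unadjusted p under 0.05, and 1 call for LIV without animal 11), and the epithelial keratins Krt8 (4.12) and Krt18 (4.29), which hepatocytes contain, were called for LIV.

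Among 9 brown and beige adipocyte markers, 3 were called for SAT and 1 for LIV (median 0.19). Ucp1, the uncoupling protein, had 5.95, 6.12 and 6.18 in LIV and 6.04, 7.55 and 6.04 in SAT and was not called (-0.46 ± 0.29, adjusted p = 0.238 by limma). Otop1 (-2.95 ± 0.25), Cox7a1 (-2.19) and Cidea (-2.06) were called for SAT, and Elovl3 for LIV. Cox7a1 is also a muscle gene, and its SAT signals were 9.98, 12.62 and 10.14. Without animal 14 it was not called (adjusted p = 0.0611 by limma).

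Skeletal muscle genes were the list whose calls turned most on single animals. Of 21 measured, 8 were called for SAT and 0 for LIV. Atp2a1, the calcium pump of fast muscle, had 7.30, 7.17 and 7.62 in LIV and 7.23, 14.64 and 11.37 in SAT (-3.72 ± 1.22), and Myh4, a fast myosin, had 6.75, 6.75 and 6.99 in LIV and 7.0, 14.40 and 11.16 in SAT (-4.02 ± 1.19). In animal 8 the SAT signal was close to that of LIV, and in animal 11 it was far above. Without animal 8, 14 of the 21 were called, without animal 11 there were 7 for SAT and 1 for LIV, without animal 14 there were 2, and without the pairing there were 2. Atp2a1 and Myh4 were among those lost without animal 14 (adjusted p = 0.179 and 0.152 by limma). Whether muscle RNA in the SAT samples adds to other SAT calls was not tested.

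**Figure D5:**
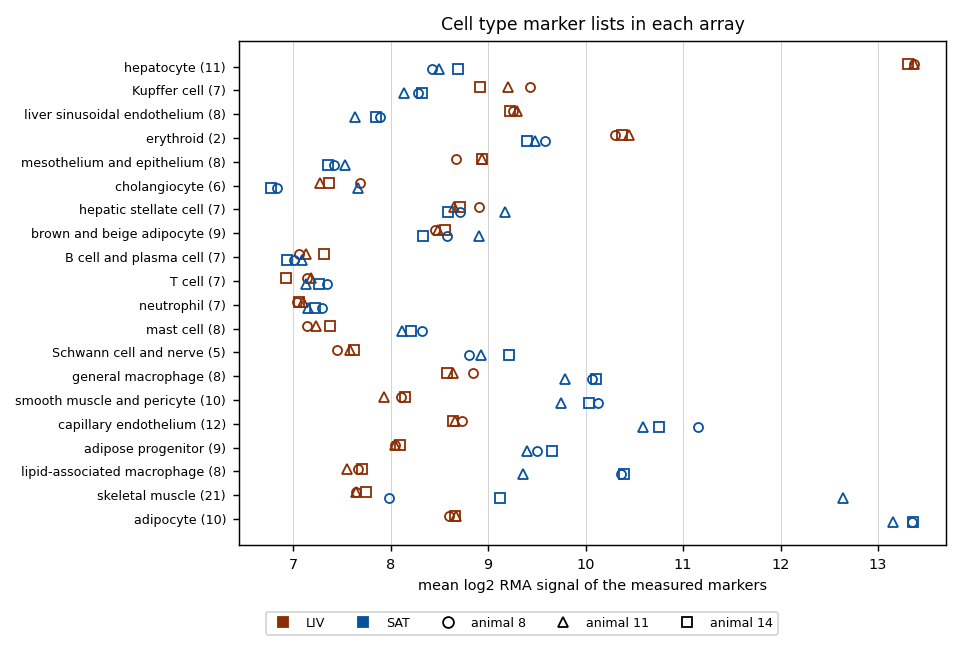
Mean log2 signal of the measured markers of 20 cell type lists in each of the 6 HFD arrays, with the number of markers in parentheses, colour for the tissue and shape for the animal. The hepatocyte and adipocyte lists separate the tissues by more than 4, and the skeletal muscle list runs from 7.99 in the SAT of animal 8 to 12.64 in that of animal 11.

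Shared cell machinery was taken as a reference for the scale of these differences, although it was not level. Of the 55 ribosomal protein genes measured, 54 had a higher signal in SAT. Of 73 respiratory chain subunits, 0 were called in either direction by limma, against 5.99% for LIV and 8.78% for SAT over all probe sets. Of the 73, 12 had an adjusted p under 0.05 at a smaller size and 15 an unadjusted p under 0.05. Without animal 11, 1 was called for LIV. Their median was -0.06, or 0.29 with the arrays set equal on ribosomal protein genes. Of 30 proteasome subunits 0 were called, with 9 at an unadjusted p under 0.05 (median -0.16, or 0.19 on that scale), and of 55 cytosolic ribosomal proteins 1, Rpl39 (-1.01), was called for SAT (not without animal 14, -0.85), and 30 had an adjusted p under 0.05 towards SAT at any size (median -0.35). Ribosomal protein genes have many processed copies, and their probe sets can share signal.

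Common reference genes were not all level between the tissues. Gapdh differed by 0.17 ± 0.19, Tbp by -0.00 ± 0.11 and Eef1a1 by 0.18 ± 0.10, and none was called. Actb had 12.46, 12.35 and 12.24 in LIV and 13.09, 12.90 and 13.14 in SAT (-0.69 ± 0.12, adjusted p = 0.00369 by limma) and Ppia differed by -0.68 ± 0.13, both under the size limit. Tubb5 (-1.65 ± 0.20) and Gusb (-1.01 ± 0.11) were called for SAT, Gusb only just, since it stood at -0.98 without animal 8 and -0.95 without animal 14, and the median of the 15 genes was -0.26, or 0.09 on the ribosomal protein scale.

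The tissue difference was then compared with that of the 3 HFD+LY animals. In a test of the tissue by treatment interaction on all 12 arrays, 0 of 22206 probe sets passed an adjusted p of 0.05 by limma, and 1471 had an unadjusted p under 0.05. The count depended on the setting, with 13 when the prior variance followed the signal and 9 without the animal as a block. In HFD+LY alone, 1503 probe sets (6.77%) were called for LIV and 1949 (8.78%) for SAT. Of the HFD calls for LIV, 1239 were also called in HFD+LY, which is 93.1% of the HFD and 82.4% of the HFD+LY calls, and for SAT 1677 were shared, 86.0% of each. The smallest interaction p was that of Cyp4a12b, a fatty acid hydroxylase, whose difference was 4.46 in HFD and 2.95 in HFD+LY (adjusted p = 0.0813 by limma).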

How the data were processed

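The deposited values were log2 signals that the authors made with RMA (background correction, quantile normalization over all arrays and summary per probe set) from 100 ng of total RNA per sample on whole-transcript arrays. No version of RMA or of the authors' limma is given in the sources used here. A tissue's own level cannot shift such quantile-normalized values as a whole, so differences are relative to all probe sets. Of 28846 rows, 6640 controls were left out and the other 22206 were tested with no filter on dim signals. The platform annotation gave 1 gene symbol for 19572 and none for 2634. Where 55 symbols had several rows, the row with the highest mean signal was used for lists and names, and no symbol had rows called in opposite directions.

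LIV was compared with SAT by limma 3.58.1 in R 4.3.3, with the animal as a fixed block (2 residual degrees of freedom, 4.46 prior) and Benjamini-Hochberg adjustment over all rows. The pairing comes from the animal numbers, which both tissues share, and the study took both tissues from these mice. Deviations of the 2 tissues of an animal from their group means correlated by 0.05, 0.01 and -0.07 over probe sets. For arrays, their number limits the precision. The animals are numbered separately, and array batches are not given in the sources used here. Alternatives were another block, a fit on all 12 arrays, and another prior, scaling, filter or weights. The others were an unmoderated test of the pairs, limma's treat test and leaving out each animal.

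The named genes were the 15 with the largest called differences in each direction, the members of the gene lists and of 22 pairs of related genes. Lists, pairs and motifs were chosen with earlier results of these data known. Promoters came from RefSeq (GRCm38.p6).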

Additional observations from a re-analysis of the deposited data

How the results depend on the processing

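Without the replicate block, which ignored the pairing by animal, 1329 probe sets were called for LIV and 1933 for SAT, and 9955 had an adjusted p under 0.05. All of these calls were among those of the paired fit. Of the named genes, Atp2a1, Myh4 and Des lost their calls without it. The tissue by treatment interaction then gave 9 probe sets in place of 0. It gave 13 when the prior variance was let follow the signal, 1 when dim rows were left out, and 0 without any single animal. Setting the arrays equal on the ribosomal protein list gave 1984 calls for LIV, 1261 for SAT and 15752 probe sets at an adjusted p under 0.05. An unmoderated test of the pairs, which shares no spread between probe sets, gave 869, 793 and 2637. Testing against a minimum difference of 1 by treat gave 883, 1006 and 1889, and a limit of 2 left 646 and 638. Leaving out 1 animal gave 1320 to 1348 calls for LIV, 1813 to 2132 for SAT and 5696 (without animal 14) to 8921 at an adjusted p under 0.05. Over all of these alternatives but the limit of 2, the named genes kept direction and side of the threshold in 4085 combinations of gene and setting, lost the call in 152, gained it in 21 and reversed as called genes in 0. The losses were uneven. Of the 249 named genes called, 70 lost the call in the unmoderated test of the pairs and 39 in the treat test. Of the 48 lists, the median of 38 kept its sign under the 3 scalings and without each animal. Those that changed it were the adipogenic factors, lipogenesis, insulin, positional, ribosomal, respiratory chain, proteasome, reference, T cell and neutrophil lists. With 3 animals, differences close to the size limit could not be placed on either side of it.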

Other observations

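Several genes outside the lists stood among the 40 largest differences towards SAT, and they were picked here after their values were seen. Mest, an imprinted gene tied to fat cell enlargement, had 8.24, 8.75 and 8.32 in LIV and 13.95, 13.26 and 13.92 in SAT (-5.27 ± 0.23). Anxa2, a calcium-dependent membrane-binding protein, had 8.74, 7.87 and 7.91 in LIV and 13.29, 12.83 and 13.15 in SAT (-4.92 ± 0.15), and Gsn, which severs actin filaments, had 7.95, 8.08 and 8.02 in LIV and 12.94, 13.16 and 13.16 in SAT (-5.07 ± 0.10). The synuclein gene Sncg (-5.34 ± 0.13) and the neurotrophin receptor gene Ntrk2 (-5.27 ± 0.11), both better known from neurons, had signals above 12 in each SAT array and below 8.1 in each LIV array. The matrix genes Dpt (-5.12 ± 0.14), Htra1 (-5.18 ± 0.12), Pcolce2 (-5.11 ± 0.14) and Timp4 (-5.12 ± 0.13) were of the same rank.

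Only 2 probe sets spanned at least 2 over the 3 LIV arrays, against 190 over the SAT arrays. Of these 190, 183 were highest in the SAT of animal 11, and the widest included muscle genes such as Atp2a1 and Myh4. The median SD over probe sets was 0.126 in LIV and 0.125 in SAT. The pair in LIV was Dmbt1, a mucosal scavenger receptor gene, with 12.64, 7.22 and 7.43, and Obp2a, an odorant binding protein gene, with 10.50, 7.05 and 8.35, both highest in animal 8. Their SAT signals were 7.42, 7.50 and 7.33 and 6.26, 6.68 and 6.51.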
